A study of Mus musculus with 8 samples.

Results

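Mural cells are the cells wrapped around the endothelium of blood vessels, and those described here came from single-cell RNA libraries of mouse hearts. A cell was taken as mural when its unique molecular identifiers (UMIs, 1 per captured transcript) for Rgs5, Kcnj8 and Myh11 summed to at least 3 and it held none of Pdgfra, Pecam1 or Ptprc, which mark fibroblasts, endothelial cells and leukocytes. Barcodes entered only if they carried 500 to 30000 UMIs, 200 to 6000 genes and less than 15% mitochondrial UMIs. The rule found 213 mural cells among 27053 filtered cells, drawn from 32473 barcodes. They were divided by the same counts into 41 Kcnj8-positive Myh11-negative cells, 132 Myh11-positive cells and 40 cells chosen by Rgs5 alone. Since measured counts chose the cells and the subsets, contrasts between subsets are descriptions, with no test.

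The hearts were from male C57BL/6J wild-type mice that were 8 weeks old at surgery. The mice were given a sham operation or transverse aortic constriction (TAC), a surgical narrowing of the aortic arch that overloads the left ventricle. Cells were profiled 2, 4 and 6 weeks after TAC (TAC-2w, TAC-4w, TAC-6w) and after the sham operation, whose time was not given, and 4 heart sections carried the same names. Age at harvest therefore rose with the weeks after TAC and was not known for sham. There was 1 library and 1 section for each condition, and the sources used here do not say whether a library held 1 heart or a pool. No difference between conditions could therefore be tested, and all intervals below cover counting error only. Whether nuclei or whole cells were loaded was not settled, since the labels speak of nuclei and the study's methods of collagenase digestion. TAC-2w cells were in batch 1, TAC-4w cells in batch 2, and TAC-6w and sham cells in batch 3 by the labels, so only TAC-6w and sham were compared within a batch.

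Pericytes lie within the basement membrane of capillaries and help to steady the endothelium. Vascular smooth muscle cells encircle arteries and arterioles and set their calibre by actin-myosin contraction. Kcnj8 and Abcc9 encode the pore and the regulatory subunit of a vascular ATP-sensitive potassium channel, Rgs5 a regulator of G-protein signalling, and Myh11 the smooth muscle myosin heavy chain. Many contractile genes carry CArG boxes, the sequence bound by serum response factor together with myocardin.

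Runs of 4 values below follow the order sham, TAC-2w, TAC-4w, TAC-6w. Total UMIs were 86671674 in sham, 78587992 in TAC-2w, 48278486 in TAC-4w and 28793316 in TAC-6w, with medians of 9250, 10856, 4484 and 4828 UMIs per filtered cell. The TAC-4w library stood apart from the others. Its summed level of 6 neutrophil markers over all filtered cells was 36885 counts per 1000000 UMIs (CPM), against 1058 in sham, 1014 in TAC-2w and 3557 in TAC-6w. Pairs of libraries shared 9 to 30 barcode sequences, and no mural cell of 1 library shared its barcode with a mural cell of another.

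Mural cells were 79 of 8228 filtered cells in sham, 0.960% (95% Clopper-Pearson interval 0.761 to 1.195). In TAC-2w they were 91 of 6501, 1.40% (1.13 to 1.72). In TAC-4w only 12 of 6747 cells met the rule, 0.178% (0.0919 to 0.311), and in TAC-6w 31 of 5577, 0.556% (0.378 to 0.788). The TAC-4w share was the lowest, and its interval did not overlap that of any other library. Without the cells rich in the fibroblast gene Dcn, described below, it was 0.0889% (0.0326 to 0.193) and overlapped that of TAC-6w, 0.305% (0.178 to 0.488). Filtered cells with at least 2 Pdgfra UMIs and no Pecam1 or Ptprc numbered 2659, 2163, 236 and 1277, also fewest in TAC-4w. Those with at least 2 Pecam1 UMIs and no Pdgfra or Ptprc numbered 350, 381, 447 and 170. Those with at least 2 Ptprc UMIs and no Pdgfra or Pecam1 numbered 1681, 1573, 3018 and 551. The part of this mix of cells in the mural share was not tested. Kcnj8-positive Myh11-negative cells numbered 19, 17, 0 and 5 in the 4 libraries, Myh11-positive cells 47, 63, 6 and 16, and cells chosen by Rgs5 alone 13, 11, 6 and 10. Only 4 cells in sham and 8 in TAC-2w held UMIs of both Myh11 and Kcnj8.

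The exclusion genes removed most cells that met the sum in sham, TAC-2w and TAC-4w, but 13 of 44 in TAC-6w. Of 194 sham cells with at least 3 UMIs of Rgs5, Kcnj8 and Myh11, 78 held Pdgfra, 48 Pecam1 and 17 Ptprc. Pdgfra was held by 98 of 227 such cells in TAC-2w, 61 of 89 in TAC-4w and 11 of 44 in TAC-6w. Cells with at least 2 Pdgfra UMIs, fibroblasts by that marker, reached the sum in 1.35% of sham, 2.54% of TAC-2w, 15.7% of TAC-4w and 0.313% of TAC-6w cells, at median depths of 10713, 12714, 13856 and 6489 UMIs. At the edge of the rule, 7 sham cells, 7 TAC-2w cells and 6 TAC-6w cells lay just inside with 3 UMIs, and 11, 15, 8 and 8 cells of the 4 libraries lay just outside with 2.

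The mitochondrial cap fell unevenly on mural cells. Among barcodes that met every count of the rule and held under 10 UMIs of Dcn, a fibroblast proteoglycan, the cap removed 71 of 137 in sham (51.8%), 78 of 154 in TAC-2w (50.6%), 8 of 15 in TAC-4w (53.3%) and 10 of 27 in TAC-6w (37.0%). Over all barcodes it removed 9.65%, 12.0%, 12.4% and 3.40%. Barcodes with at least 2 Pdgfra UMIs lost 0.669% in sham and 0.996% in TAC-2w, those with at least 2 Pecam1 UMIs 11.5% and 22.5%, and those with at least 2 Ptprc UMIs 9.90% and 7.69%. Myh11-positive and Myh11-negative barcodes were removed at like shares, 49.4% and 55.8% in sham and 50.4% and 51.6% in TAC-2w. Without the cap the mural share was 1.64% in sham and 2.27% in TAC-2w.

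**Figure D1:**
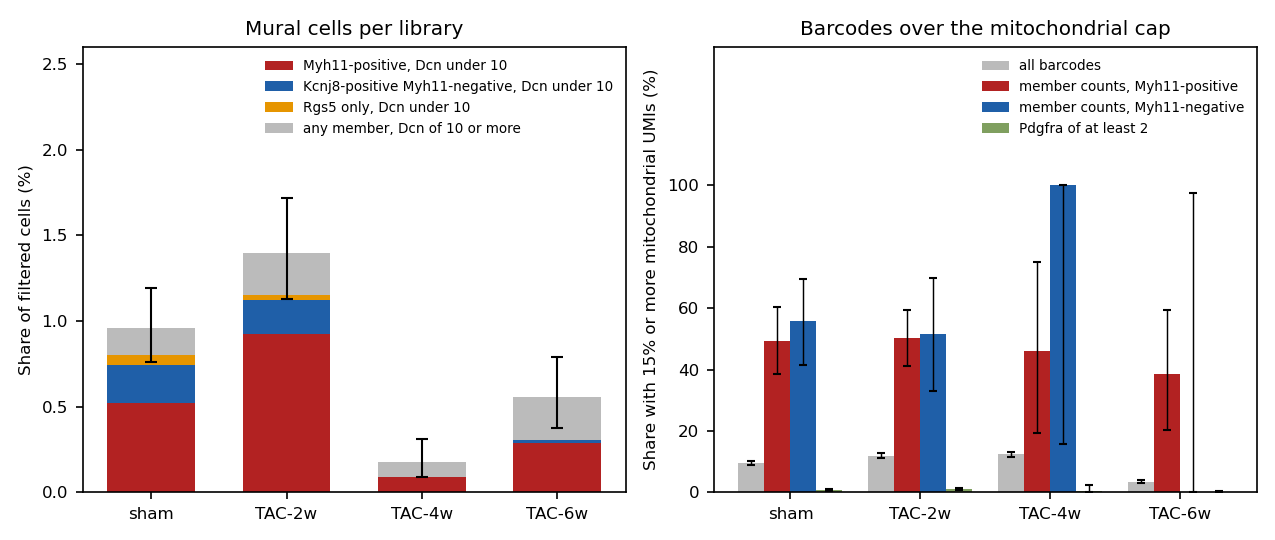
Share of filtered cells that met the mural rule in each library (left, percent, stacked by subset, with the 95% interval of the total) and share of barcodes at or over 15% mitochondrial UMIs for all barcodes, mural counts with and without Myh11, and Pdgfra-bearing barcodes (right, percent, 95% intervals). Sham and TAC-2w hold the highest mural shares, 0.960% and 1.40%, and TAC-4w the lowest, and in sham and TAC-2w about every other mural barcode exceeds the cap while under 1% of Pdgfra-bearing barcodes do.

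A part of the cells went against the mural label. Among the 81 Myh11-negative mural cells, 39 held at most 2 Dcn UMIs and 42 held at least 20, with none between. The 42 Dcn-rich cells had a median of 160 Dcn UMIs, up to 745, and at most 5 of Acta2, smooth muscle actin. Among Myh11-positive cells, 125 held under 10 Dcn UMIs and 7 held 10 to 306. Of those 7 cells 4 had 64 to 335 Acta2 UMIs beside 10 to 22 of Dcn. Dcn-rich cells, with at least 10 Dcn UMIs, were 13 of 79 mural cells in sham, 16 of 91 in TAC-2w, 6 of 12 in TAC-4w and 14 of 31 in TAC-6w.

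Most cells chosen by Rgs5 alone were Dcn-rich, 8 of 13 in sham, 9 of 11 in TAC-2w, 6 of 6 in TAC-4w and 10 of 10 in TAC-6w. So were 1 of 19 Kcnj8-positive Myh11-negative cells in sham, 4 of 17 in TAC-2w and 4 of 5 in TAC-6w. Dcn-rich cells had UMIs of a median of 7, 8, 7 and 7.5 of 10 fibroblast markers in the 4 libraries, against 2, 3, 1.5 and 1 in the Dcn-poor cells. None held Vtn, the vitronectin gene that marks pericytes. Their leading genes against all other filtered cells, seen only after the split, included Wif1, Wnt16 and Rspo3 of Wnt signalling, and Coch. The limit of 10 Dcn UMIs was set after the counts were seen, and the Dcn-rich cells are given below as Dcn-rich cells, without a type.

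**Figure D2:**
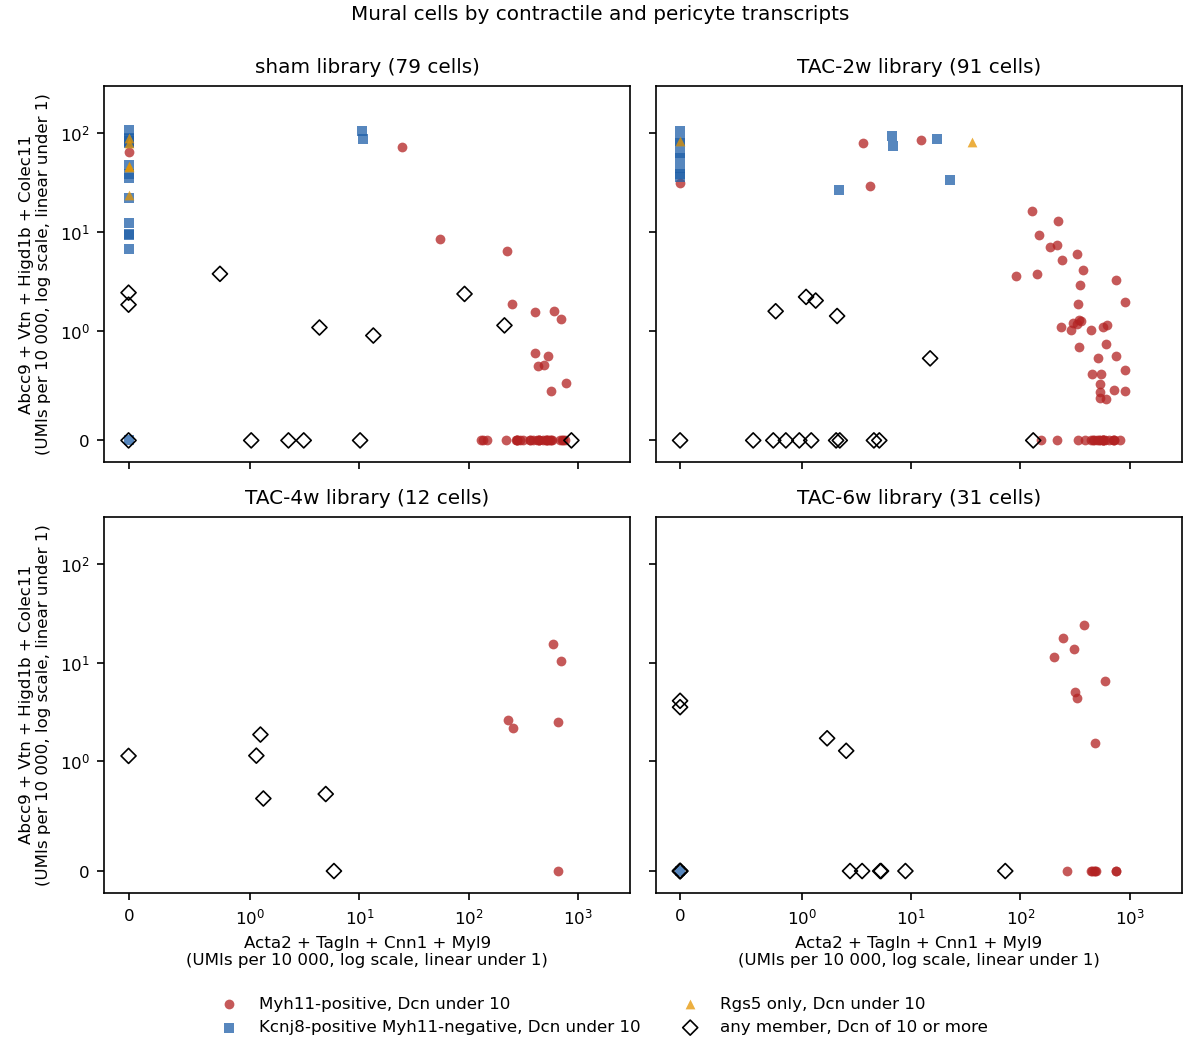
Each point is a mural cell of sham, TAC-2w, TAC-4w or TAC-6w, placed by its share of UMIs (per 10 000) in 4 contractile genes (x, Acta2, Tagln, Cnn1 and Myl9) and in 4 pericyte genes (y, Abcc9, Vtn, Higd1b and Colec11), on log axes that are linear under 1. Dcn-poor Myh11-positive cells (circles) lie mostly at the right and Dcn-poor Kcnj8-positive Myh11-negative cells (squares) mostly at the upper left. The Dcn-rich cells (open diamonds, 13, 16, 6 and 14 per panel) lie mostly low on both axes. The exceptions on the contractile axis include 4 Myh11-positive ones with 64 to 335 Acta2 UMIs.

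The 32 Dcn-poor Kcnj8-positive Myh11-negative cells had the counts of pericytes and are called pericyte-like. They numbered 18 in sham (0.219% of filtered cells), 13 in TAC-2w (0.200%), 0 in TAC-4w, which allows up to 0.0445%, and 1 in TAC-6w (0.0179%). They were shallow, with a median of 1064 UMIs in sham and 1474 in TAC-2w. At least 2 of 7 pericyte genes were held by 16 of 18 and 13 of 13 of them, but also by 27 of 43 sham and 48 of 60 TAC-2w Dcn-poor Myh11-positive cells. Over all 3 libraries their leading genes against the remaining filtered cells included Vtn and Higd1b, beside Rgs5 and Kcnj8, which were in the rule. Of the 18 pericyte markers 17 were detected in sham and in TAC-2w, with summed levels of 29712 and 23592 CPM, and Ggt1 had no UMI. These sums include Rgs5 and Kcnj8 of the rule. The single TAC-6w cell held 4 Kcnj8 UMIs and no other pericyte marker, and its UMIs of 2 macrophage markers summed to 9381 CPM, so it was left out of what follows.

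Rgs5 (ENSMUSG00000026678) was in all 18 sham and all 13 TAC-2w pericyte-like cells, at 13787 CPM (12469 to 15207) and 7283 CPM (6208 to 8491). Its median was 9 and 7 UMIs per cell, and 1 sham cell held 220. Kcnj8 (ENSMUSG00000030247), the channel pore, was at 1689 CPM (1249 to 2233) and 1698 CPM (1202 to 2331). These genes were in the rule, so their presence is not a finding.

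Genes outside the rule gave the same picture. Abcc9 (ENSMUSG00000030249), the partner subunit of Kcnj8, was at 3206 CPM (2587 to 3927) in 14 of 18 sham cells and at 2413 CPM (1813 to 3148) in 13 of 13 TAC-2w cells. Vtn (ENSMUSG00000017344) was at 1448 CPM (1043 to 1957) in 14 of 18 and at 1743 CPM (1239 to 2382) in 10 of 13. Pdgfrb, the receptor through which endothelial PDGF-B recruits pericytes, was at 1620 CPM in 14 of 18 and at 2055 CPM in 12 of 13. Cspg4, the NG2 proteoglycan, was at 999.6 CPM in 13 of 18 and at 894 CPM in 9 of 13. The intervals of sham and TAC-2w overlapped for Abcc9 and for Vtn, and those of Rgs5 did not. Without the sham cell of 220 UMIs, Rgs5 was at 8703 CPM (7478 to 10072) in sham and its intervals overlapped.

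Higd1b, a gene of mitochondrial hypoxia adaptation, was at 483 CPM (264 to 810) in 9 of 18 sham cells and at 849 CPM (511 to 1326) in 8 of 13 TAC-2w cells. Colec11, a collectin of the lectin complement pathway, was at 1103 CPM (754 to 1557) in sham, where 1 cell held 25 of its 32 UMIs, and at 804 CPM (477 to 1271) in TAC-2w in 9 of 13 cells. Notch3, the mural Notch receptor, was at 448 CPM in 6 of 18 and at 938 CPM in 10 of 13. Rgs4, another regulator of G-protein signalling, was at 1069 and 1251 CPM.

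Transcripts of Acta2, Tagln and Cnn1 were nearly absent from these cells. Acta2 had 0 UMIs in sham, with an upper bound of 127 CPM, and 1 UMI in TAC-2w, at 44.7 CPM. Tagln had 0 and 3 UMIs, and Cnn1, calponin, 0 and 0. None of Acta2, Tagln, Cnn1 and Myl9 was found in 16 of 18 sham cells and 8 of 13 TAC-2w cells. In Pdgfra-bearing fibroblasts of the same libraries Acta2 had a UMI in 12.1% and 15.7% of cells, at 51.1 and 49.6 CPM and median depths of 10713 and 12714 UMIs. The 1 Acta2 UMI of the TAC-2w pericyte-like cells, with an interval of 1.13 to 249 CPM, cannot be told apart from that background.

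The 125 Dcn-poor Myh11-positive cells, 43 in sham, 60 in TAC-2w, 6 in TAC-4w and 16 in TAC-6w, are called smooth-muscle-like by their leading genes. In 2 sham and 4 TAC-2w cells the counts went against that name, with 1 Myh11 UMI, at most 2 of Acta2 and Rgs5 at 13367 and 8099 CPM over these cells. Leaving them out, a choice made after the counts were seen, changed the mural counts of genes past 2-fold by less than 1.5 times in every comparison. Their median depth was 12972, 13688, 6926 and 6668 UMIs. All of Acta2, Tagln, Cnn1 and Myl9 were found in 35 of 43, 46 of 60, 4 of 6 and 15 of 16 cells. Their summed pericyte markers, Rgs5 and Kcnj8 included, reached 2340, 3395, 4600 and 6453 CPM, several-fold under the pericyte-like cells. Kcnj8 and Myh11 parted these subsets and Rgs5 was in the rule, so a part of that gap was set by the choice of cells.

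Acta2 (ENSMUSG00000035783) was at 21814 CPM (21418 to 22215) in sham, 23118 in TAC-2w, 25962 in TAC-4w and 19934 in TAC-6w. It was in 42 of 43, 56 of 60, 6 of 6 and 16 of 16 cells, with medians of 266, 292.5, 174.5 and 115.5 UMIs and up to 1055 in 1 cell. Tagln (ENSMUSG00000032085), transgelin, was at 18750, 22068, 20608 and 16521 CPM. Myh11 (ENSMUSG00000018830), which chose the cells, was at 4345 CPM (4170 to 4526), 8011 CPM (7824 to 8202), 3312 CPM and 4708 CPM. The contractile level thus stayed in 1 narrow range over the libraries for Acta2 and Tagln, and Myh11 was highest in TAC-2w.

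Myl9, a regulatory myosin light chain, was at 4997, 6287, 6845 and 6415 CPM, and Tpm2, a tropomyosin, at 7812, 11244, 13653 and 10307 CPM. Cnn1 was at 1276, 1405, 828 and 997 CPM, and Lmod1, a nucleator of smooth muscle actin, at 1208, 1278, 1251 and 873 CPM. Actg2, the enteric smooth muscle actin, was at 667, 662 and 1141 CPM but at 201 in TAC-6w, where 5 of 16 cells held it. Kcnj8 was at 9.42 and 21.9 CPM in sham and TAC-2w and had no UMI in TAC-4w and TAC-6w, and Abcc9 was at 32.0, 39.2, 18.4 and 0 CPM. The cells with 1 Myh11 UMI and at most 2 of Acta2 held 3 of 5 Kcnj8 and 9 of 17 Abcc9 UMIs in sham and 14 of 19 and 29 of 34 in TAC-2w. Without them Kcnj8 was at 3.79 and 5.83 CPM and Abcc9 at 15.1 and 5.83 CPM.

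No ion channel or vasoactive gene reached the minimum in the Dcn-poor contrast, so levels are given without counts. Kcnmb1 and Kcnma1, the subunits of the large-conductance calcium-activated potassium channel, had no UMI in the pericyte-like cells. In smooth-muscle-like cells Kcnmb1 was at 164, 160, 147 and 67.1 CPM and Kcnma1 at 62.2 and 74.97 CPM in sham and TAC-2w. Myocd, myocardin, at 143, 151, 110 and 201 CPM, and Ramp1, a subunit of the CGRP receptor, at 390, 291, 276 and 278 CPM, were likewise at 0 in the pericyte-like cells. At the pericyte-like depth a level of that size gives few counts, so these zeros carry little weight on their own. S1pr3, a sphingosine phosphate receptor, was at 1034 and 938 CPM in pericyte-like cells and at 158, 263, 350 and 547 CPM in smooth-muscle-like cells. Gucy1a1, a subunit of the nitric oxide receptor, was at 862 and 983 CPM against 665, 670, 865 and 671 CPM.

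**Figure D3:**
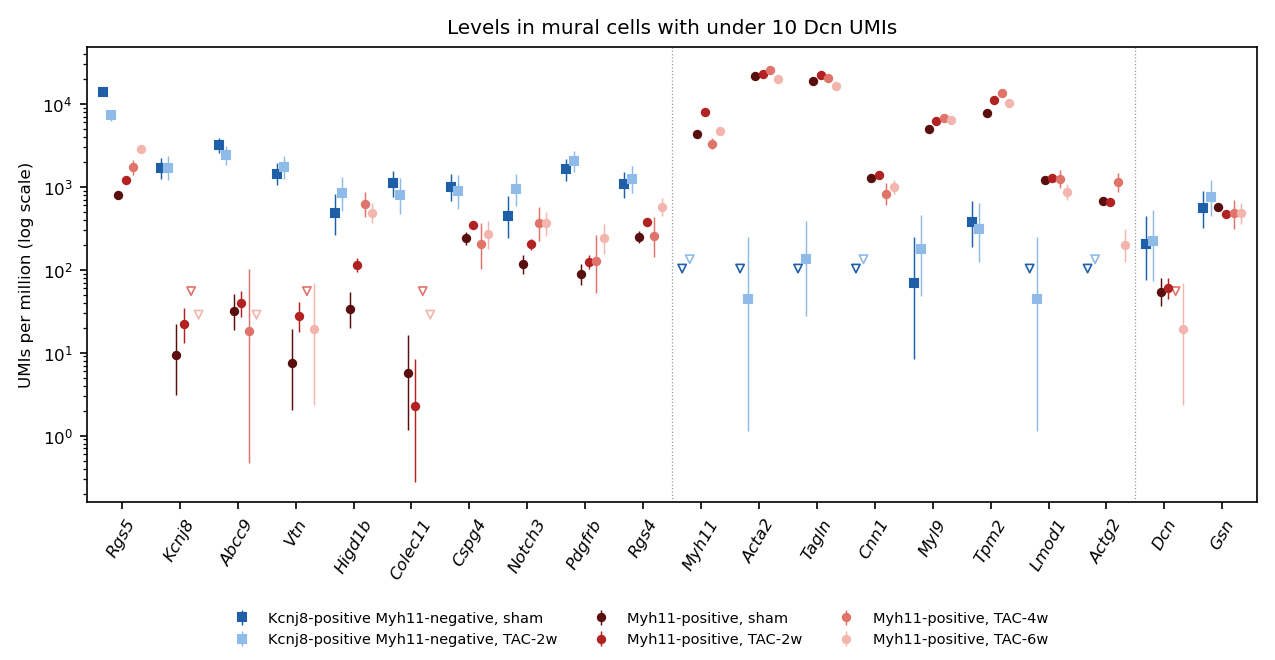
Summed levels (CPM, log axis) of 10 pericyte genes, 8 contractile genes, Dcn and Gsn in Dcn-poor cells, with squares for pericyte-like cells (sham and TAC-2w), circles for smooth-muscle-like cells (4 libraries), bars for 95% counting intervals and open triangles for the limit that 0 UMIs allow. Rgs5 lies at 13787 and 7283 CPM in the pericyte-like cells and between 801 and 2877 in the smooth-muscle-like cells, and Acta2 between 19934 and 25962 in the latter against at most 1 UMI in the former.

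Promoters of both sets are shown because the contractile genes are the textbook targets of serum response factor. RefSeq promoters (250 bases before to 50 after the start, GRCm38.p6) were found for 13 of the 18 pericyte markers and 19 of the 24 contractile genes. The CArG box, searched on both strands, was in 488 of 27025 promoters (1.81%), in 0 of 13 pericyte promoters and in 2 of 19 contractile promoters (10.5%), those of Ldb3 and Myl9. With 1 core letter left free, a search made after the strict one, it was in 3050 promoters (11.3%), in 1 of 13 pericyte promoters (7.69%, Ggt1) and in 4 of 19 contractile promoters (21.1%, adding Acta2 and Pcp4l1). Acta2 lies on the minus strand at chr19:34255324-34255623, Myl9 on the plus strand at chr2:156775214-156775513 and Kcnj8 on the minus strand at chr6:142571565-142571864. The sequences run 5′ to 3′ and capitals mark the CArG letters, which start 84 and 34 bases before the Acta2 start and 161 and 99 bases before the Myl9 start.
Acta2: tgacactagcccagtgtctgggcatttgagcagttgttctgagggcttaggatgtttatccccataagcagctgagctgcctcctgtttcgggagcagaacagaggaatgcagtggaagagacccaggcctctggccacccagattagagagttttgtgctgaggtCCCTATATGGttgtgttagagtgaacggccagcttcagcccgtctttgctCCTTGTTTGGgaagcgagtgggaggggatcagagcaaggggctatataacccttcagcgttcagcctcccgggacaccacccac
Myl9: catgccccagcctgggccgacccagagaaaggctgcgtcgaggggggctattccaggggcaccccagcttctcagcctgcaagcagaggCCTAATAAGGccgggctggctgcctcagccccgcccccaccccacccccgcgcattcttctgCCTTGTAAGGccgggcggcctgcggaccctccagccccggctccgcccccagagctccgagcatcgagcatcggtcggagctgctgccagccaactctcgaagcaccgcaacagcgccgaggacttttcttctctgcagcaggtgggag
Kcnj8: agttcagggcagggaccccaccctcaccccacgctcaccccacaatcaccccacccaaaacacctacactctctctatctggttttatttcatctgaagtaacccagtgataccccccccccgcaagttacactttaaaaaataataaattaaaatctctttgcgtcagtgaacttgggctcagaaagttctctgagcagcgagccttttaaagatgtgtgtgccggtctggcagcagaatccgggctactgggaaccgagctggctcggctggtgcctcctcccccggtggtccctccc
The Kcnj8 window held neither form. A match is only a match of letters, and its absence from this window says nothing of the factor.

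Kcnj8-positive Myh11-negative and Myh11-positive cells were first contrasted over all mural cells, gene by gene, in sham and in TAC-2w. A gene was compared when its pooled level implied at least 20 UMIs in the smaller sum, and Rgs5, Kcnj8, Myh11 and the 3 exclusion genes were left out. Of 248 genes compared in both libraries, 4 (1.61%) were at least 2-fold higher in the Kcnj8-positive Myh11-negative cells in both and 52 (21.0%) at least 2-fold lower. The higher genes were Dcn, Ftl1, Gsn and Timp3. Dcn had 202 UMIs against 249 in sham, a ratio of levels of 12.6 (10.4 to 15.2), and 1508 against 507 in TAC-2w, a ratio of 35.8. Gsn, gelsolin, had ratios of 2.87 and 8.26, and Ftl1, a ferritin chain, 3.53 and 4.30. These genes moved with the Dcn-rich cells, 1 of 19 and 4 of 17 of the subset. Without Dcn-rich cells Dcn had 6 against 29 UMIs in sham and 5 against 52 in TAC-2w, and Gsn had ratios of 0.953 and 1.63. With a mitochondrial cap of 5% no gene passed 2-fold in both libraries, and Timp3 turned to -0.64 on the log2 scale. In sham that cap left of the subset only a Dcn-poor cell of 1500 UMIs and a Dcn-rich cell of 8249 UMIs. In TAC-2w too most UMIs it left in the subset were in Dcn-rich cells.

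The Myh11-positive sum was far deeper, 576772 against 37261 UMIs in sham, so a gene reached the minimum mainly through its level there and nothing is read from the split into higher and lower genes. The contractile genes are given by their UMIs alone. Acta2 had 0 UMIs against 12093 in sham and 2 against 20146 in TAC-2w. Computed against the floor of 3 UMIs the sham ratio was at most 0.00384, and the TAC-2w ratio was 0.00120 (0.000145 to 0.00432). Tagln had 0 against 10468 and 22 against 19311 UMIs, and Myl9 2 against 2749 and 7 against 5457. Tpm2 had 11 against 4287 and 10 against 9789, and Tpm1 8 against 1679 and 18 against 3761. Cnn1 had 0 against 710 and 0 against 1226, and Lmod1 0 against 658 and 1 against 1121. Csrp1, a LIM protein of the actin cytoskeleton, had 2 against 784 and 6 against 1789, Mustn1 2 against 677 and 0 against 1794, and Ppp1r14a, an inhibitor of myosin phosphatase, 2 against 574 and 5 against 1214. In each of these pairs the Kcnj8-positive Myh11-negative cells held a small part of the UMIs, although their summed depth was also smaller. No pericyte marker reached the minimum.

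With Dcn-rich cells left out, 4 of 156 genes (2.56%) were at least 2-fold higher in the pericyte-like cells in both libraries and 88 (56.4%) lower. The same limit applies, since Abcc9 with 93 against 17 UMIs in sham missed the minimum and Acta2 with 0 against 11577 passed. Lars2, the mitochondrial leucyl-tRNA synthetase, was 4.69-fold higher (3.90 to 5.61) in sham and 4.11-fold in TAC-2w, at 5274 and 4826 CPM against 1125 and 1174. Gm42418, whose reads overlap ribosomal RNA sequence, was at 112126 and 103619 CPM against 26794 and 25814. Lars2 and Gm42418 were also leading genes of the Dcn-poor cells chosen by Rgs5 alone, at 7392 and 167663 CPM. Those cells and the pericyte-like cells were shallow, with sham medians of 851 and 1064 UMIs against 12972 in smooth-muscle-like cells. The part of depth in the Lars2 and Gm42418 values was not tested. Egr1, an immediate early transcription factor, was at 3275 and 4468 CPM against 1334 and 1913. Sparc, a collagen-binding matrix protein, was at 2757 and 3887 CPM against 1343 and 1325. In the contrast over all mural cells a mitochondrial cap of 5% turned the direction of Sparc (-0.06) and Gm42418 (-0.42) on the log2 scale. Under that cap most UMIs of the Kcnj8-positive Myh11-negative cells were in Dcn-rich cells, so these values say little of the pericyte-like cells. Summed with no minimum, all 24 contractile genes reached 3378 and 4602 CPM in pericyte-like cells of sham and TAC-2w and 74862, 93602, 91595 and 80101 CPM in smooth-muscle-like cells, Myh11 included. The 19 basement membrane genes summed to 7204 and 9115 CPM against 3701, 4371, 2502 and 2359 CPM. Among them Col4a1, a chain of collagen IV, was at 2137 and 2145 CPM in pericyte-like cells and at 550, 922, 460 and 479 CPM in smooth-muscle-like cells.

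Rgs5 itself divided the smooth-muscle-like cells. At least 5 Rgs5 UMIs were held by 13 of 43 cells in sham, 30.2% (17.2 to 46.1), 21 of 60 in TAC-2w, 35.0% (23.1 to 48.4), 3 of 6 in TAC-4w and 11 of 16 in TAC-6w, 68.8% (41.3 to 89.0). Without the cells of 1 Myh11 and at most 2 Acta2 UMIs they were 11 of 41 in sham and 17 of 56 in TAC-2w. No Rgs5 UMI was found in 27, 31, 2 and 3 cells. The summed Rgs5 level was 801, 1194, 1730 and 2877 CPM. Cells with Rgs5 were shallower, with medians of 6942 against 14308 UMIs in sham and 7760 against 19421 in TAC-2w, while their mitochondrial shares were close, 10.5% against 9.90% and 11.7% against 11.6%. The split was made after the counts were seen, and genes named in it that belong to no list were chosen after their values were seen.

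Between cells with at least 5 and with 0 Rgs5 UMIs, 669 genes were compared in sham and TAC-2w, and 18 (2.69%) were at least 2-fold higher and 31 (4.63%) at least 2-fold lower in both libraries. The Rgs5-negative sum was the deeper one, so a gene reached the minimum mainly through its level there. Counts of higher and lower genes in this contrast are therefore no support for a direction. Rasl11a, a small GTPase of the Ras family, was 5.96-fold higher (4.31 to 8.29) in sham, 3.98-fold in TAC-2w and 8.06-fold in TAC-6w, where the Rgs5-negative cells held 3 UMIs (2.68 to 39.7). Rgs4 was 3.49-fold and 3.62-fold higher, but 1.02-fold in TAC-6w. Rrad, a GTPase that binds calcium channel subunits, was 2.67-fold (1.75 to 4.03) and 3.19-fold higher. Stress-response genes were also among the higher ones, with Ppp1r15a at 2.80 and 4.31, Cdkn1a at 3.33 and 2.43, Atf3 at 2.39 and 2.40 and Gadd45b at 2.33 and 3.41. By list, 3 of 21 immediate early and stress genes and 3 of 4 inflammatory genes were higher in both sham and TAC-2w and none lower.

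Of the 31 genes lower with Rgs5, 4 were on the contractile, 3 on the fibrillar and 2 on the basement membrane list. Ogn, the proteoglycan osteoglycin, had 10 against 326 UMIs in sham, a ratio of 0.113 (0.0536 to 0.210), and 0 against 546 in TAC-2w. Ptgis, prostacyclin synthase, had ratios of 0.266 and 0.0608, and Thbs1, thrombospondin, 0.0364 and 0.276. Ccn3 had 35 against 412 UMIs and 0 against 230. Eln, elastin, had ratios of 0.360 and 0.225. Npnt, nephronectin, had ratios of 0.336 and 0.0178. Of 18 contractile genes compared none was higher, with the limit on the genes compared given above. Acta2 was at 13154 against 24060 CPM in sham, a ratio of 0.547, and at 0.421 of the Rgs5-negative level in TAC-2w, while in TAC-6w the ratio was 0.896 (0.793 to 1.02). Actg2 had ratios of 0.373 and 0.115. Fibrillar matrix genes were lower for 3 of 5 compared, with the same limit.

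**Figure D4:**
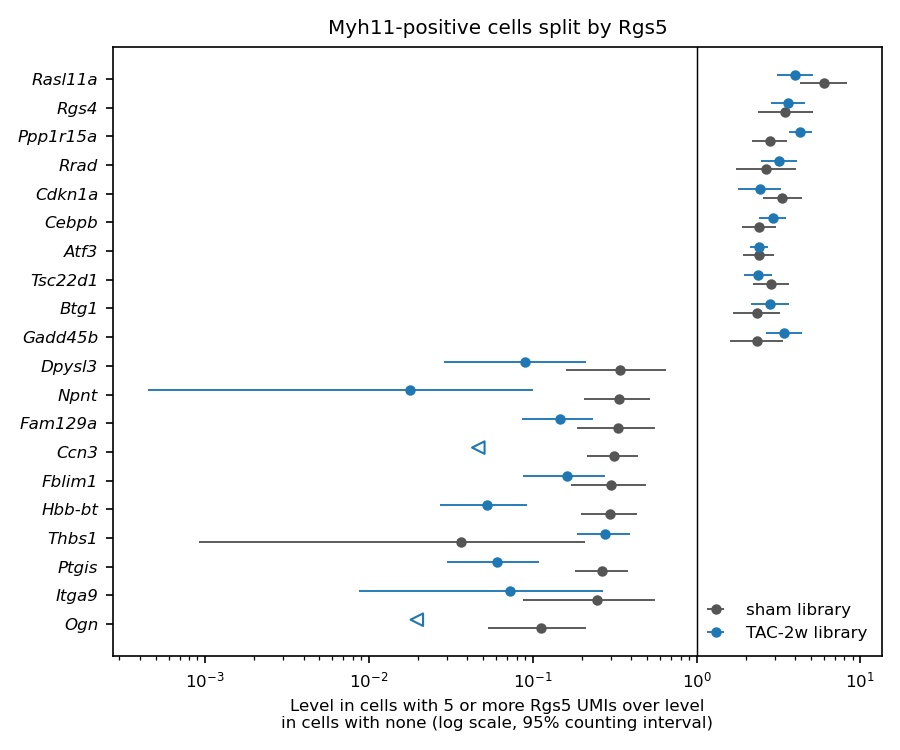
Ratio of levels (log axis) in smooth-muscle-like cells with at least 5 Rgs5 UMIs over those with 0, for the 10 highest and 10 lowest genes, in sham and TAC-2w, with 95% counting intervals and open triangles for a ratio set by 0 UMIs. Rasl11a is highest at 5.96 and 3.98, and Ogn, Ccn3 and Npnt lie lower in TAC-2w than in sham.

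Over all mural cells, TAC-2w and sham allowed 4251 genes to be compared. Of these 55 (1.29%) were at least 2-fold higher in TAC-2w and 68 (1.6%) at least 2-fold lower. Rbp4, the retinol carrier, had 57 UMIs in 7 TAC-2w cells and 2 in sham, a ratio of 18.1 (4.78 to 153), but 1 cell held 35. Mmp3, stromelysin, had 162 UMIs in 9 cells, 97 of them in 1, and 11 in sham, a ratio of 9.34 (5.08 to 19.1). Serpina3n had 52 against 5 UMIs, Cilp 58 against 8 and C3, a complement protein, 53 against 9. In the smooth-muscle-like cells Mmp3 and Serpina3n each had 1 UMI in sham and 1 in TAC-2w. Their UMIs thus lay mainly in other cells that met the rule, among them the Dcn-rich cells that went against the mural label. Whether Dcn-rich or pericyte-like cells held them is not given here. Cilp was lower (log2 ratio -0.98) when 1 exclusion UMI was allowed, and C3 (-1.66) without Dcn-rich cells. Of the lower genes Sost, sclerostin, had 38 UMIs in TAC-2w and 214 in sham, a ratio of 0.113, and Pdlim4 7 and 53, a ratio of 0.0837. The class II antigen genes Cd74, H2-Aa and H2-Ab1 were lower too, but 1 sham cell held 81 of 126 Cd74 UMIs.

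TAC-4w allowed 1026 genes, with 46 (4.48%) at least 2-fold higher and 100 (9.75%) lower, and TAC-6w 1515, with 84 (5.54%) higher and 119 (7.85%) lower. Of the 46 genes higher in TAC-4w, 4 were on the fibroblast marker list, and the 5 highest were Lum (210 UMIs against 153 in sham, ratio 6.42), Vcan (111 against 86, 6.04), Serpinf1 (87 against 72, 5.65), Wif1 (296 against 242, 5.72) and Fxyd6 (75 against 48, 7.31). In TAC-6w the 5 highest were C4b (73 against 22, 10.8), Fmod (85 against 28, 9.88), Serpinf1 (153 against 72, 6.92), Bc1 (61 against 32, 6.21) and Fxyd6 (81 against 48, 5.49). These differences stood beside the Dcn-rich cells, 6 of 12 in TAC-4w and 14 of 31 in TAC-6w against 13 of 79 in sham. The summed level of all 10 fibroblast markers was 7227, 7525, 16144 and 14104 CPM in the mural cells of the 4 libraries and 1389, 746, 570 and 633 CPM in the smooth-muscle-like cells. Over smooth-muscle-like cells alone Fxyd6 had 1, 4, 0 and 0 UMIs, and over all Myh11-positive cells Lum (-2.15) and Serpinf1 (-0.59) were lower in TAC-4w and Fmod (-0.34) in TAC-6w on the log2 scale. Conditions are therefore also given within smooth-muscle-like cells.

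The 5 lowest genes in TAC-4w mural cells were Atf3 (2 UMIs against 457 in sham), Ccn3 (0 against 463), Pcdh7 (2 against 139), Hspa1b (4 against 191) and the globin gene Hbb-bt (7 against 412). In TAC-6w the lowest were Ccn3 (1 against 463), Pcdh7 (1 against 139) and the globin genes Hbb-bs (5 against 4455), Hba-a1 and Hba-a2. Globins come from red blood cells, and 1 sham cell held 2260 of the 4347 Hbb-bs UMIs of the smooth-muscle-like cells. Summed red blood cell markers over all filtered cells were 11562, 5309, 21673 and 1462 CPM, so the TAC-6w library was low in them outside mural cells as well.

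Within smooth-muscle-like cells, 46 of 3196 genes (1.44%) were at least 2-fold higher in TAC-2w than in sham and 91 (2.85%) lower. In TAC-4w 11 of 372 (2.96%) were higher and 55 (14.8%) lower, and in TAC-6w 64 of 688 (9.3%) higher and 84 (12.2%) lower. Medians over all compared genes were -0.02, -0.06 and 0.00 on the log2 scale. The 6 TAC-4w cells left few genes with enough UMIs. Genes named within these cells that belong to no list were chosen after their values were seen.

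Few contractile genes passed 2-fold. Of 23 compared in TAC-2w 1 was at least 2-fold higher and 0 lower (median log2 ratio 0.33), of 18 in TAC-4w 3 higher and 0 lower, and of 18 in TAC-6w 3 higher and 1 lower. Their summed level, given above without a minimum, was lowest in sham. Acta2 had ratios over sham of 1.06, 1.19 and 0.914, Tagln 1.18, 1.10 and 0.881, and Myh11 1.84, 0.762 and 1.08. Actg2 was the lower gene in TAC-6w, at 0.302. Mustn1, a small nuclear protein of muscle, was at 1251, 2014, 2870 and 3049 CPM in the 4 libraries, with ratios of 1.61, 2.29 and 2.44. Pln, phospholamban, the inhibitor of the sarcoplasmic calcium pump, was at 386, 572, 865 and 978 CPM, with ratios of 1.48, 2.24 and 2.53. Both genes were higher in each TAC library than in sham, while in filtered cells outside the mural set Mustn1 differed from sham by -0.24, -1.43 and -0.38 and Pln by -0.10 in TAC-2w and -2.82 in TAC-6w on the log2 scale.

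Sncg, gamma-synuclein, was higher in all 3 TAC libraries. Its level was 337 CPM (290 to 391) in sham, in 25 of 43 cells, 810 CPM (751 to 872) in TAC-2w, in 55 of 60, 1233 CPM (955 to 1566) in TAC-4w, in 6 of 6, and 1199 CPM (998 to 1428) in TAC-6w, in 16 of 16. The ratios over sham were 2.40 (2.03 to 2.85), 3.66 (2.72 to 4.87) and 3.55 (2.81 to 4.49). The same direction was found among cells with at least 5 Rgs5 UMIs, with ratios of 2.25, 2.51 and 2.80, and among cells with 0, with 3.21, 6.04 and 6.04. These 2 groups held only 3 and 2 cells in TAC-4w and 11 and 3 cells in TAC-6w. In filtered cells outside the mural set Sncg was at 3.99, 3.97, 10.2 and 5.13 CPM. Its level in these cells was thus far under that in smooth-muscle-like cells, and it was not higher in TAC-2w.

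Of all pericyte markers 1 of 9 was higher in TAC-2w, 0 of 1 in TAC-4w and 2 of 4 in TAC-6w, and none compared was lower. Notch3 was at 117, 203, 368 and 364 CPM, with ratios of 1.74, 3.15 and 3.12, and among cells with at least 5 Rgs5 UMIs of 1.80, 3.40 and 2.496. It had 62, 176, 20 and 38 UMIs, too few in TAC-4w and TAC-6w to be among the genes compared. The TAC-4w cells with at least 5 Rgs5 UMIs were only 3. Higd1b was at 33.9, 114, 626 and 489 CPM in 9 of 43, 34 of 60, 5 of 6 and 8 of 16 cells. Its 18 UMIs in sham gave ratios of 3.37 (2.02 to 5.91), 18.5 and 14.4, too few in sham for the TAC-4w and TAC-6w comparisons. In TAC-4w 1 cell held 23 of the 34 Higd1b UMIs, and in TAC-6w all 51 were in cells with at least 5 Rgs5 UMIs. Cox4i2, an isoform of a respiratory subunit found in oxygen-sensing cells, was at 151, 181, 386 and 575 CPM, and its TAC-6w ratio of 3.82 (2.68 to 5.40) was 1.93 (1.203 to 3.13) among cells with at least 5 Rgs5 UMIs. Rgs5 within such cells had ratios of 1.47, 1.35 and 1.01. The larger share of Rgs5-bearing cells in TAC-6w went with the higher Cox4i2 level there. For Rgs5 the share and the level come from the same UMIs, so they are not separate observations.

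Fibrillar and matricellular matrix genes had a lower summed level in each TAC library than in sham. Of these genes 1 of 17 was higher and 7 lower in TAC-2w (median -0.47), and 4 of 4 were lower in TAC-4w and 5 of 6 in TAC-6w. With the deeper sham sum a gene reached the minimum in TAC-4w and TAC-6w mainly through its sham level, so these counts are no support for a direction. Summed with no minimum, all 27 genes of the list reached 4711, 3610, 534 and 1141 CPM. The 10 fibroblast markers summed to 1389, 746, 570 and 633 CPM in the same cells, and 3 of 5 compared were lower in TAC-2w, 0 of 1 in TAC-4w and 1 of 2 in TAC-6w. Their part in the matrix values was not tested. Eln, the elastic fibre protein of the arterial wall, was at 724 CPM in sham (384 UMIs in 26 of 43 cells), 232 CPM in TAC-2w (201 UMIs in 32 of 60), 18.4 CPM in TAC-4w (1 UMI) and 57.5 CPM in TAC-6w (6 UMIs in 2 of 16). The TAC-2w ratio was 0.320 (0.269 to 0.381), and it was 0.162 among cells with at least 5 Rgs5 UMIs and 0.259 among cells with 0. In filtered cells outside the mural set the log2 difference of Eln from sham was 0.32 in TAC-2w, -1.48 in TAC-4w and 0.20 in TAC-6w, and in Pdgfra-bearing cells 0.52, -0.31 and 0.33. Eln was therefore lower in smooth-muscle-like cells of TAC-2w and TAC-6w while it was not in the other cells of those libraries. The TAC-6w value rested on 6 UMIs, 0 of them in cells with at least 5 Rgs5 UMIs and 5 in cells with 0. Cells with at least 5 Rgs5 UMIs, lower in Eln in sham and TAC-2w, were 11 of 16 in TAC-6w against 13 of 43 in sham. The part of that mix was not tested.

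Bgn, biglycan, was at 1311 and 1211 CPM in sham and TAC-2w but at 110 and 221 CPM in TAC-4w and TAC-6w. Outside the mural set its log2 difference from sham was -1.90 in TAC-4w and 0.81 in TAC-6w. Col3a1, fibrillar collagen III, was at 409, 288, 36.8 and 9.59 CPM, and Postn, periostin, at 299.6, 86.5, 18.4 and 9.59 CPM. Thbs1 was the higher gene in TAC-2w, at 562 CPM in 38 of 60 cells against 245 CPM in 14 of 43. Ccn3 was at 842 and 317 CPM and had no UMI in TAC-4w or TAC-6w. Of basement membrane genes 0 of 11, 0 of 3 and 0 of 5 were higher and 1 each was lower, of TGF-beta response genes 0 of 10, 1 of 5 and 1 of 7 were lower, and of genes of the synthetic smooth muscle state 0 of 8, 1 of 3 and 2 of 4, again with genes that reached the minimum mainly through sham in TAC-4w and TAC-6w.

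The lowest genes in TAC-2w against sham included Sost and Pdlim4. Sost was at 403 CPM in 16 of 43 sham cells, 40.4 CPM in 6 of 60 TAC-2w cells and 0 in TAC-4w and TAC-6w, a TAC-2w ratio of 0.100 (0.0679 to 0.144). Mfap4, a microfibril protein, was at 399.5 and 46.1 CPM, Fibin at 153 and 18.5 CPM, Pdlim4 at 98.0 and 6.92 CPM and Pcolce2, an enhancer of procollagen processing, at 90.4 and 6.92 CPM. Among cells with 0 Rgs5 UMIs Sost had 15 UMIs in TAC-2w and 178 in sham. The genes highest in TAC-2w included Apold1, with 49 UMIs against 5, in 11 of 60 and 3 of 43 cells, Rcan1, a calcineurin regulator, with 68 against 9, and Pgam2, the muscle phosphoglycerate mutase, at 296 against 84.8 CPM, a ratio of 3.496 (2.54 to 4.91).

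Immediate early and stress genes summed to 25592, 28716, 10985 and 23003 CPM over all 26 of the list. Of 25 compared in TAC-2w 1 was higher and 1 lower, of 18 in TAC-4w 0 higher and 14 lower, and of 22 in TAC-6w 1 higher and 2 lower, with the same limit on the genes that reached the minimum. Atf3 was at 782, 1341, 0 and 863 CPM and Cebpd at 439, 445, 0 and 537 CPM. Atf3 was also lower in TAC-4w outside the mural set, at 307 CPM against 771 in sham, and in Pdgfra-bearing cells, at 122 against 743 CPM. Tmsb4x, thymosin beta 4, was at 7578, 3385, 331 and 432 CPM in smooth-muscle-like cells, while its log2 difference outside the mural set was 0.00, 0.81 and -0.29.

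In TAC-6w, the library that shared the batch label of sham, 2 of 6 nuclear-encoded respiratory genes compared were at least 2-fold higher. Outside that list Atpif1, an inhibitor of ATP synthase, was at 516, 642, 920 and 1946 CPM and Atp5k, a subunit of that enzyme, at 416, 508, 699 and 1496 CPM, with TAC-6w ratios of 3.77 and 3.59. Their log2 differences outside the mural set were 0.23 and 1.07. Rasd1, a GTPase induced by glucocorticoids, was at 123, 233, 497 and 729 CPM, a TAC-6w ratio of 5.95 (4.22 to 8.42), against 2.33 among cells with at least 5 Rgs5 UMIs. Whether mural differences in these genes went beyond those of the library was not tested.

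Pericyte-like cells could be compared only between TAC-2w and sham, over 80 genes, of which 7 (8.75%) were at least 2-fold higher and 5 (6.25%) lower. None of 6 pericyte markers passed 2-fold, with a median log2 ratio of 0.03. Abcc9 had a ratio of 0.753 (0.528 to 1.06), Kcnj8 of 1.01, Vtn of 1.204 and Pdgfrb of 1.27. Rgs5 had a ratio of 0.528 (0.438 to 0.635), and of 0.837 (0.673 to 1.04) without the sham cell of 220 UMIs. Immediate early and stress genes were higher for 5 of 14. Klf2 had 44 against 15 UMIs, Hspb1 50 against 20, Hes1, a Notch target, 36 against 17 and Hspa1a 102 against 52, but for each gene a single TAC-2w cell held most of them, 29, 44, 34 and 65 UMIs. Ttn, the titin of cardiomyocytes, had 8 against 57 UMIs, 51 of them in 1 sham cell. Each of these differences thus rested largely on 1 cell. Cardiomyocyte markers summed to 3240 CPM in the sham and 1787 CPM in the TAC-2w pericyte-like cells, against 793 and 834 CPM over all filtered cells of those libraries.

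The heart sections gave another readout of the genes that parted the subsets. Each section was a grid of spots that hold several cells, with 1676, 2063, 1228 and 2193 spots and 25996378, 48754396, 31942372 and 48288659 UMIs in the order used above. By the labels the sham and TAC-2w sections shared a batch. Spots with at least 5 Myh11 UMIs numbered 31 (1.85%), 23 (1.11%), 26 (2.12%) and 17 (0.775%), and they were deeper than spots with none, at medians of 25795 against 14255 UMIs in sham and 35183 against 18603 in TAC-6w. In spots, fewer mural cells and less RNA per cell cannot be told apart.

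Of 2057 genes compared, 10 (0.486%) were at least 2-fold higher in Myh11 spots in all 4 sections and 0 (0.0%) at least 2-fold lower. Of the 10 genes named as lower in Kcnj8-positive Myh11-negative cells, 9 were at least 2-fold higher in Myh11 spots of every section, although only 2 of the 10 had enough UMIs in all sections to be among the 2057. Acta2 was 24.8, 11.7, 13.1 and 16.2 times higher, at 1132 CPM against 45.6 in sham. Tagln was 39.7, 36.8, 31.2 and 29.1 times higher, Myl9 28.7, 21.3, 26.9 and 23.1 times, and Cnn1 47.3, 52.4, 73.5 and 31.8 times. Tpm1, which cardiomyocytes also express, had ratios of 1.13, 1.02, 1.03 and 1.02. Sncg was 7.21, 6.81, 4.52 and 6.47 times higher and Eln 5.05, 6.29, 2.95 and 3.89 times. Pln, abundant in cardiomyocytes, had ratios of 0.968, 0.902, 0.899 and 0.946.

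Pericyte genes did not all go 1 way in Myh11 spots. Of 16 pericyte markers outside the rule, only 2 had enough UMIs in all sections to be compared. Kcnj8 had ratios of 0.944, 0.877, 0.735 and 0.790, Abcc9 of 1.07, 0.858, 0.920 and 0.638, and Vtn of 0.890, 0.651, 0.895 and 1.04. Rgs5 was higher in every section, with ratios of 1.44, 1.10, 1.29 and 1.46. Kcnj8 had a UMI in 42.4%, 57.1%, 57.3% and 56.3% of all spots, so it was spread over the tissue at this resolution. Rgs4 and Notch3, like Rgs5 found in both mural groups, were also higher in Myh11 spots, by 4.15, 4.51, 1.68 and 3.94 times and by 3.57, 3.03, 2.40 and 2.15 times. Fibroblast genes were higher there as well, with 7 of 7 compared in every section and Dcn at 2.29, 1.52, 1.71 and 1.58 times, while red blood cell genes were lower for 4 of 4. These counts have no 2-fold limit. Of all 2057 genes compared, 711 were higher in every section and 152 lower.

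**Figure D5:**
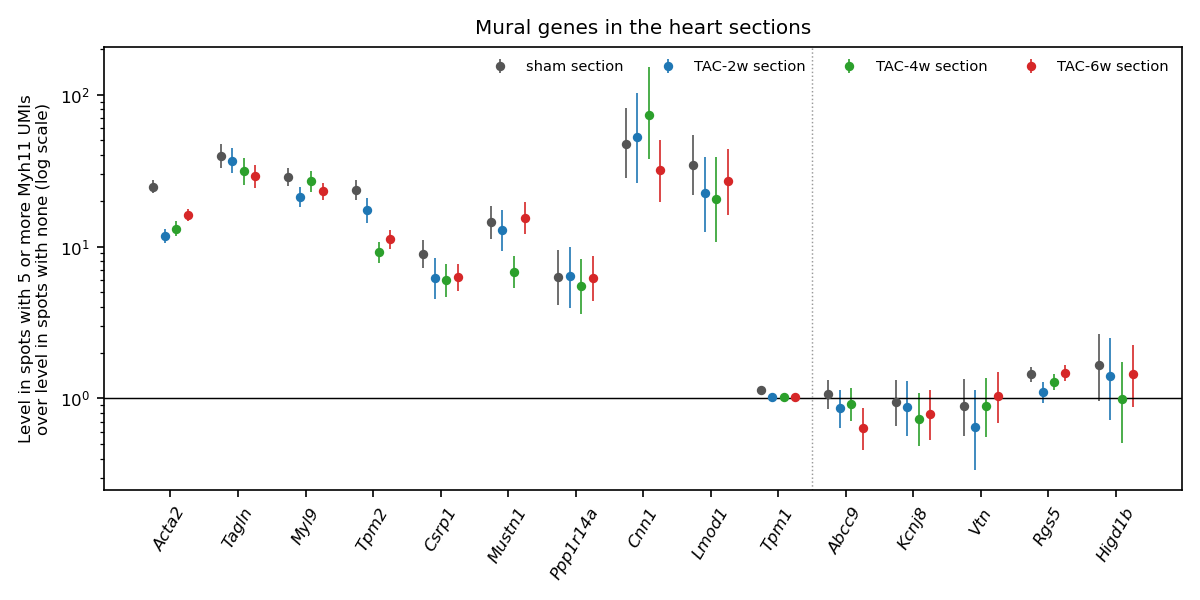
Ratio of levels (log axis) in spots with at least 5 Myh11 UMIs over spots with 0, per heart section, for the 10 genes named as lower in Kcnj8-positive Myh11-negative cells and for Abcc9, Kcnj8, Vtn, Rgs5 and Higd1b, with 95% counting intervals. Acta2 lies between 11.7 and 24.8 and the other contractile genes except Tpm1 also lie above 2, while Kcnj8 lies between 0.735 and 0.944.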

How the data were processed

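The deposited matrices held raw UMI counts per gene and barcode, which the authors made by aligning reads to mm10. The submitters' processing notes name Cell Ranger 7.0.0 and Space Ranger 1.3.1, while the matrix headers read cellranger 6.0.0 and spaceranger 1.2.0. The spots in the section matrices were those marked as over tissue.

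The cells, their subsets and the gene lists were chosen with earlier results of these data known. UMIs were summed over the cells of a subset and library and given per 1000000 UMIs (CPM) with exact 95% Poisson intervals, ratios with exact conditional binomial intervals, and shares with Clopper-Pearson intervals. With 1 library per condition no test, SE or p-value was computed. A gene was compared when its pooled level implied at least 20 UMIs in the smaller sum, and 2-fold was the limit counted. Where a sum was 0 the ratio was set against 3 UMIs. The named genes were those of the lists, the 10 highest and 10 lowest of the subset contrast and the 5 highest and 5 lowest of each TAC library over sham among all mural cells, and others were named after their values were seen. Doublets were not removed in the values reported. As an alternative the 3.2% of cells with the highest Scrublet scores were left out. Other alternatives were a sum of at least 2 or 6 UMIs, at most 1 UMI of the exclusion genes, a mitochondrial cap of 5%, thinning to 2000 UMIs per cell, a mean over cells, a minimum of 50 UMIs, single subsets, spots with at least 10 Myh11 UMIs and, chosen after seeing the data, no mitochondrial cap, mural cells without the Dcn-rich ones, Myh11-positive cells with under 10 Dcn UMIs, and mural cells without those of 1 Myh11 and at most 2 Acta2 UMIs. The contrast code was tested on simulated data. Scrublet was run through scanpy 1.11.5, figures were drawn with matplotlib 3.10.9, and the rest was computed with scipy 1.17.1, pandas 2.3.3 and numpy 2.4.6 in Python 3.11.15.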

Additional observations from a re-analysis of the deposited data

How the results depend on the processing

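No paired analysis was possible because each condition had 1 library and 1 section, so no replicate could be left out either. The mural share of filtered cells became 1.35% in sham and 1.83% in TAC-2w with 1 exclusion UMI allowed, 0.267%, 0.327% and 0.323% in sham, TAC-2w and TAC-6w with a mitochondrial cap of 5%, and 1.64% in sham and 2.27% in TAC-2w with no cap. It became 0.0889% in TAC-4w and 0.305% in TAC-6w without Dcn-rich cells, and in TAC-6w 0.377% with a sum of at least 6 and 0.354% after thinning. The share of Kcnj8-positive Myh11-negative cells among mural cells became 14.3% in sham and 38.5% in TAC-2w with the 5% cap, 4.69% in sham and 0% in TAC-6w after thinning, and 4.76% in TAC-6w with a sum of at least 6.

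The subset contrast gave 33 higher and 121 lower genes with a sum of at least 2, 61 and 185 with 1 exclusion UMI allowed, 0 and 0 with the 5% cap, 11 and 84 with no cap and 0 and 16 with at least 50 UMIs. It gave 1 higher gene without likely doublets, 88 lower without Dcn-rich cells and 81 lower by the mean over cells.

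TAC-2w against sham gave 39 lower genes with the 5% cap, 36 higher with no cap, 165 higher and 178 lower by the mean over cells, 21 and 20 with at least 50 UMIs, and 12 lower in Kcnj8-positive cells alone. TAC-4w gave 114 higher and 178 lower with a sum of at least 2, 107 higher with 1 exclusion UMI allowed, 41 lower with the 5% cap, 14 and 55 without Dcn-rich cells, 20 and 35 with at least 50 UMIs, 13 and 59 in Myh11-positive cells and 11 and 55 in those with under 10 Dcn UMIs. Kcnj8-positive cells alone could not be compared in TAC-4w, which had none. TAC-6w gave 78 lower with a sum of at least 6, 54 lower with the 5% cap, 154 higher by the mean over cells, 35 and 51 with at least 50 UMIs, and 40 lower in Kcnj8-positive cells. In the sections 6 genes were higher with at least 10 Myh11 UMIs per spot. The other 127 values of this kind moved by less than 1.5 times or within their interval.

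With the 5% cap, which left few Kcnj8-positive Myh11-negative cells and most of their UMIs in Dcn-rich ones, the log2 ratio of the subset contrast reversed for 4 genes. These were Timp3 (-0.64), Sparc (-0.06), Gm42418 (-0.42) and Mgp (-0.14). In TAC-2w it reversed for Cilp (-0.98 with 1 exclusion UMI allowed) and C3 (-0.57 with a sum of at least 2 and -1.66 without Dcn-rich cells). In TAC-4w it reversed for Lum (-2.15) and Serpinf1 (-0.59) in Myh11-positive cells and for Hbb-bt (2.63) with a sum of at least 2, and in TAC-6w for Fmod (-0.34) in Myh11-positive cells. The cause was not tested. Depth limited the pericyte-like cells, at a median of 1064 and 1474 UMIs, and the 6 smooth-muscle-like cells of TAC-4w.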

Other observations

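Barcodes that met every count of the mural rule but exceeded the mitochondrial cap carried the same marker genes. Among those with under 10 Dcn UMIs, Kcnj8-positive Myh11-negative barcodes numbered 16 in sham and 11 in TAC-2w, with medians of 906 and 1297 UMIs and mitochondrial shares of 21.8% and 19.4%. Their levels were 7520 CPM (6187 to 9056) and 6033 CPM for Rgs5, 2778 and 2982 for Abcc9, 1287 and 1595 for Vtn and 1491 and 2219 for Kcnj8. Gm42418 was at 139566 and 166227 CPM in them. Myh11-positive barcodes over the cap numbered 42, 60, 6 and 9 in the 4 libraries, with median mitochondrial shares of 23.7%, 45.6%, 25.7% and 37.3%. Their Acta2 level was 12043, 12569, 7937 and 13839 CPM, lower than in the smooth-muscle-like cells under the cap in every library. CPM counts mitochondrial UMIs in the total, and the smooth-muscle-like cells had median mitochondrial shares of 10.33%, 11.45%, 10.9% and 9.568%. A larger mitochondrial share alone lowers the CPM of other genes, and levels per non-mitochondrial UMI were not computed. Tagln was at 11336, 10396, 7122 and 8158 CPM, and Rgs5 at 801, 1492, 4052 and 2185 CPM.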
